A study of Homo sapiens with 4 samples.

Results

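VAT1, PGAM5, TMBIM6 and SCAP encode proteins of mitochondrial and endoplasmic reticulum (ER) membranes, and their transcripts held 12 of the 1181 regions of RNA listed by iCLIP of the RNA helicase MOV10. The 12 regions were chosen by position alone: each overlapped the limits of one of the 4 genes on hg19, on the strand of the gene. All 12 lay wholly inside those limits, with 4 in VAT1, 1 in PGAM5, 2 in TMBIM6 and 5 in SCAP. The 4 genes were themselves selected from the listed regions, so that they hold regions is no finding.

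The study immunoprecipitated UV-crosslinked RNA from HEK293F, an established cell line of human embryonic kidney origin adapted to suspension culture. Experiments 1 and 2 each had a MOV10 pull-down, with a MOV10 antibody, and a control one, for which an antibody to zebra finch FMRP served, which makes 4 libraries. The labels give no treatment or genetic change, and all 4 libraries share the cell line. By the labels, each of the 2 read lists belongs to the MOV10 and the control pull-down alike, so a read cannot be given to MOV10 or to control, and no value below is an enrichment. The experiments are replicates by label, with no statement that their cultures were separate, so every comparison between them is between replicates and not between conditions, and its p-value reflects 1 read list against 1 other.

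MOV10 is an RNA helicase that moves along RNA from 5′ to 3′ and is found with Argonaute proteins in messenger RNA silencing. In iCLIP, the reverse transcriptase often halts at the crosslinked base, which places the 5′ end of a read next to the site of contact. VAT1 is a protein of the quinone oxidoreductase family that is found in the cytosol and at the outer mitochondrial membrane. PGAM5 is a mitochondrial serine/threonine phosphatase, TMBIM6 (BAX inhibitor 1) is a membrane protein of the ER that limits cell death, and SCAP is the ER sterol sensor that escorts SREBP transcription factors to the Golgi.

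The libraries were told apart by the barcode of the reverse transcription primer, shown here because it is what would tie a read to its pull-down. Each barcode has 4 fixed bases, in capitals, among 5 random ones, written n. The barcodes per the labels were:
MOV10 pull-down, experiment 1: nnnTGGAnn
control pull-down, experiment 1: nnnGTTAnn
MOV10 pull-down, experiment 2: nnnGGCCnn
control pull-down, experiment 2: nnnCCGCnn
As background, random bases in such a primer serve to tell separate cDNA molecules from copies made by PCR. Neither kind of base is in the read lists used here. Copies were therefore judged from the read name, which ends in a copy number and a rank, and from fragments, meaning reads with the same 2 ends counted as 1. That reading of the names is an inference from their values.

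The regions of VAT1, PGAM5 and TMBIM6 lay near the 3′ end of their genes, and those of SCAP did not. Distances here run along the gene, introns included, and are not distances along the spliced RNA. In the first 3 genes, the centres of the 7 regions were 377.5 to 1806 nt from the 3′ limit of the gene, at 89.1% to 98.4% of its length from the 5′ limit. In SCAP, the 5 centres were 10258.5 to 55554 nt from the 3′ limit, at 10.8% to 83.5% of the gene. The 4 VAT1 regions fell within 486 nt of each other, whereas the 5 SCAP regions spread over 45333 nt. Exons, introns and untranslated parts are not assigned, since the annotation used here is of another build.

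Lengths of annotated exons can still be set beside these distances. In GENCODE release 29 on GRCh38, the coding transcript that reaches furthest 3′ ends in an exon of 1540 nt in VAT1, 2057 nt in PGAM5, 2062 nt in TMBIM6 and 387 nt in SCAP. All 7 distances in VAT1, PGAM5 and TMBIM6 were shorter than the last exon of their gene, and all 5 in SCAP were longer. The spliced length of that SCAP transcript, SCAP-201, is 4394 nt, which all 5 SCAP distances also exceeded. Coding transcripts with shorter last exons are also annotated, among them PGAM5-201 with 405 nt and TMBIM6-225 with 76 nt. This is a comparison of lengths across builds and places no region in an exon.

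**Figure D1:**
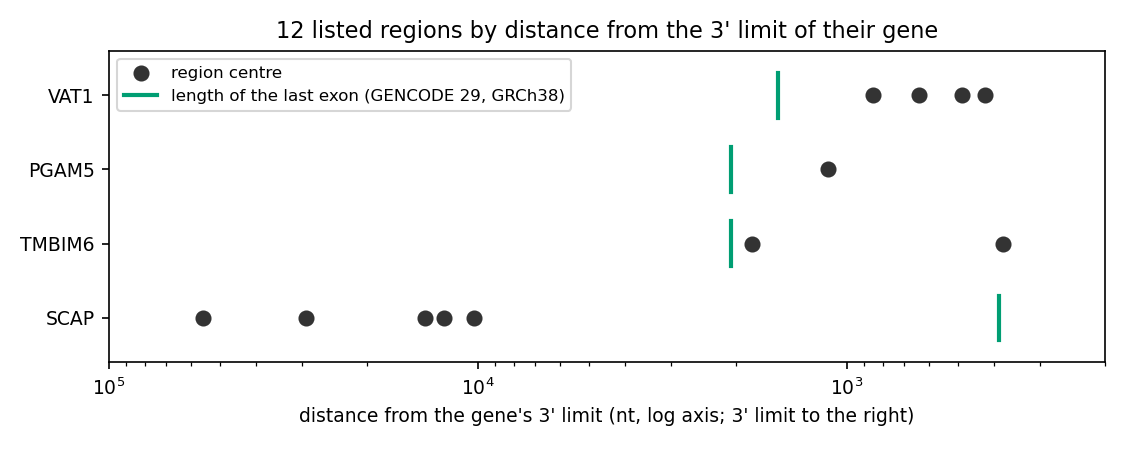
Distance of the centre of each of the 12 regions from the 3′ limit of its gene on hg19, in nt on a log axis that runs 5′ to 3′ from left to right, with the length of the last exon in GENCODE release 29 as a green line. The 7 points of VAT1, PGAM5 and TMBIM6 lie to the right of their lines at 377.5 to 1806 nt, and the 5 points of SCAP lie far to the left of theirs.

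The read lists held 4021 reads in experiment 1 and 6032 in experiment 2, which are reads in listed regions and not library depth. The 12 regions took 71 reads in experiment 1 and 205 in experiment 2, in 36 and 26 distinct fragments. SCAP region 3 alone took 182 of the 205. Without it, the other 11 regions held 63 and 23 reads. Regions are numbered within each gene from 5′ to 3′.

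By gene, SCAP held a larger share of reads in experiment 2 than in experiment 1, while the other 3 genes held smaller shares in experiment 2. The larger share of SCAP came from SCAP region 3 alone, and each other SCAP region held a smaller share in experiment 2. SCAP regions 1, 4 and 5 had equal reads in both experiments, so their smaller shares came from the larger total of experiment 2 alone. VAT1 held 25 reads in experiment 1, a share of 0.622% (95% exact Clopper-Pearson interval 0.403 to 0.916), and 7 in experiment 2, a share of 0.116% (interval 0.0467 to 0.239). PGAM5 held 13 and 2 reads, or 0.323% (interval 0.172 to 0.552) and 0.0332% (interval 0.00402 to 0.120). TMBIM6 held 8 and 3 reads, or 0.199% (interval 0.0859 to 0.392) and 0.0497% (interval 0.0103 to 0.145). SCAP held 25 and 193 reads, or 0.622% (interval 0.403 to 0.916) and 3.20% (interval 2.77 to 3.68). These intervals cover counting error only, and any reads that copy a molecule would make them too narrow. The log2 ratios of shares, experiment 2 over experiment 1, were -2.42 for VAT1, -3.29 for PGAM5, -2.0 for TMBIM6 and 2.36 for SCAP, with no test at the level of genes. Shares depend on the totals, and 20 read-rich regions, where either experiment had 50 reads or more, took unequal parts of them. These 20, SCAP region 3 among them, held 434 of 4021 reads in experiment 1 and 3480 of 6032 in experiment 2. Without them, the ratios were -1.35, -2.21, -0.92 and -0.14. The log2 ratio of SCAP regions 1, 4 and 5 then turned from -0.59 to 0.49 each, and that of region 2 went from -2.17 to -1.09. With all regions kept and distinct fragments in place of reads, the gene ratios were -1.14, -2.04, -0.87 and 0.75. With summed copies they were -5.58, -5.74, -3.74 and 2.91, so their size depended on the unit counted.

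Each of the 1181 regions was tested for its share of reads by a two-sided Fisher's exact test with Benjamini-Hochberg adjustment over all of them. Of the whole list, 54 regions (4.57%) passed at an adjusted p under 0.05. In 25 (2.12%) the share was higher in experiment 2, and in 29 (2.46%) in experiment 1. Of the 12 regions here, 3 passed, and since the genes were chosen with such results known, nothing is read from that count. SCAP region 3 was higher in experiment 2, and VAT1 region 2 and the PGAM5 region were higher in experiment 1. By distinct fragments, 5 of 1181 regions (0.423%) passed and 0 of the 12, of which 1 had an unadjusted p under 0.05 (Fisher's exact test). With the 20 read-rich regions left out of the totals and the test, 0 of the other 11 passed. How many of the remaining listed regions passed in that setting is not given here. Nor is the number of all regions with an unadjusted p under 0.05 by distinct fragments. Nothing is therefore read from these counts of members.

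**Figure D2:**
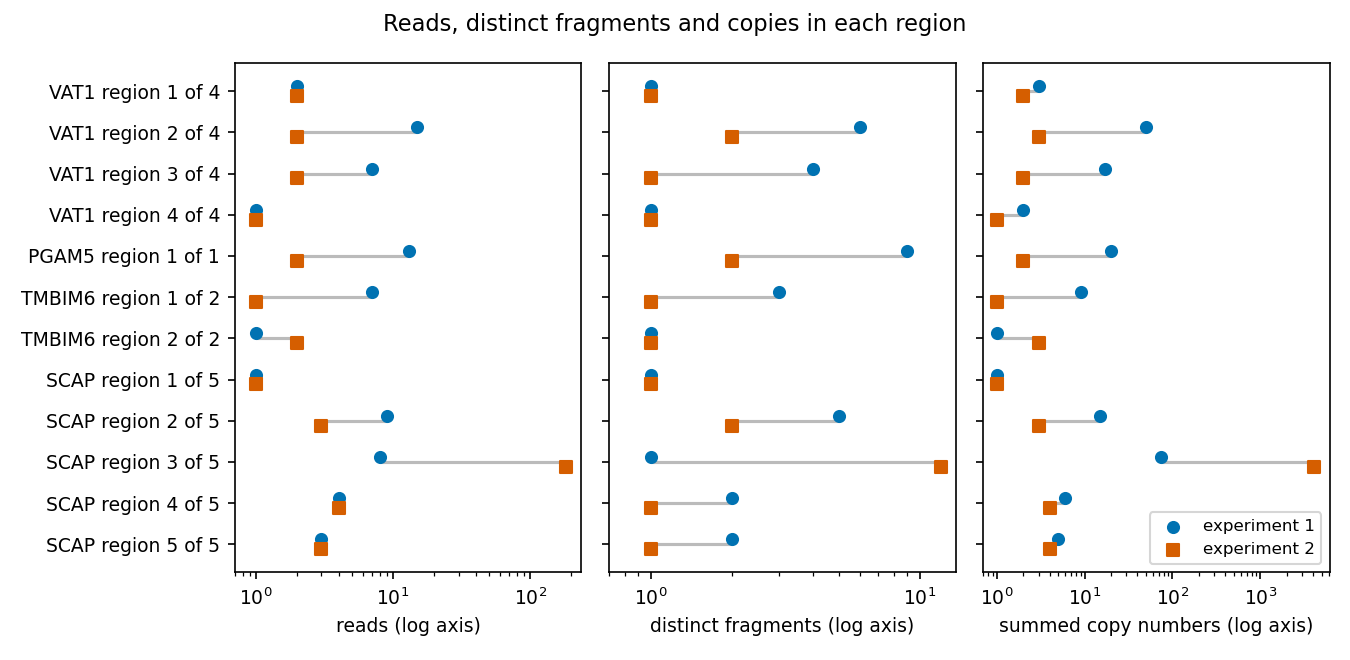
Reads (left), distinct fragments (middle) and summed copy numbers (right) of each region on log axes, with experiment 1 as blue circles, experiment 2 as orange squares and a grey line between them. SCAP region 3 stands apart with 182 reads and 4076 copies in experiment 2, while VAT1 region 2 and the PGAM5 region have 15 and 13 reads in experiment 1 against 2 each in experiment 2.

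VAT1 had the most regions close together, all on the minus strand of chromosome 17. Region 2 (41167202 to 41167314) had 15 reads in experiment 1 and 2 in experiment 2, a log2 ratio of shares of -3.49 (Fisher's exact test, adjusted p = 0.00185). Its distinct fragments numbered 6 and 2, a difference that did not pass (Fisher's exact test, adjusted p = 1). Its 5′ ends in experiment 1 were at 4 positions, and 7 of the 15 reads began at 41167300. The fragment from 41167262 to 41167300 carried 41 of the 50 copies there and occurred in all 3 groups of read names (names that start with 06, with 07 or with neither). In experiment 2 the 2 reads began at 41167299 and 41167313, each 1 nt downstream of a 5′ end of experiment 1 at 41167300 and 41167314.

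The other VAT1 regions held few reads and did not differ by the test. Region 1, from 41167442 to 41167505, held 2 reads in each experiment, all of the same fragment of 64 nt. Region 3, from 41167087 to 41167129, held 7 and 2 reads, in 4 fragments against 1 by experiment, and did not pass (Fisher's exact test, adjusted p = 0.39). Of its 7 reads in experiment 1, 5 began at 41167128 and 2 at 41167129, and both reads of experiment 2 began at 41167127. Region 4, from 41167020 to 41167067, held 1 read in each, with the 5′ end at 41167067 in experiment 1 and at 41167066 in experiment 2. In all 4 VAT1 regions, each 5′ end of experiment 2 thus lay at an end of experiment 1 or 1 nt downstream of it. The shift of 1 nt was common over the whole list, as given below, and is not particular to these genes.

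PGAM5 had 1 region, at 133298053 to 133298158 of chromosome 12 (plus strand), which had the most distinct fragments of the 12 in experiment 1. It held 13 reads in experiment 1, in 9 distinct fragments, and 2 reads in experiment 2, in 2 fragments. The log2 ratio of shares was -3.29 when reads were counted (Fisher's exact test, adjusted p = 0.00781) and -2.04 when fragments were (Fisher's exact test, adjusted p = 1). Without the 20 read-rich regions in the totals, the adjusted p of the region was 0.9, and that of VAT1 region 2 was 0.484 (Fisher's exact test). Within the 3 groups of read names, neither of these regions passed.

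The 13 PGAM5 reads of experiment 1 fell into sets by their 5′ ends. At 133298053, 3 reads began, and at 133298057 another 4. At 133298090, 5 reads began, and at 133298091 the remaining 1. Both reads of experiment 2 began at 133298058, 1 nt downstream of the second of these sets. The 3′ ends varied more than the 5′ ends, with 8 positions against 4 in experiment 1. PGAM5 fragments were also long, with a median of 77 nt in experiment 1 (range 49 to 91) against 40 nt for VAT1, 37.5 nt for TMBIM6 and 32 nt for SCAP. In experiment 2 its 2 fragments were 84 and 91 nt. The top copy number was 6, and 10 of the 13 reads had a copy number of 1.

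TMBIM6 had 2 regions on the plus strand of chromosome 12, and in the longer one the experiments barely overlapped. Region 1 (50156854 to 50156968) had 7 reads in experiment 1 and 1 in experiment 2 (log2 ratio -3.39, Fisher's exact test, adjusted p = 0.14). All 7 reads of experiment 1 began at 50156854, in 3 fragments of 32, 37 and 76 nt. The read of experiment 2 began at 50156923, 69 nt downstream, and only 7 nt of the region were covered in both experiments. That overlap came from the fragment of 76 nt, a single read, and the other 2 fragments of experiment 1 ended at 50156885 and 50156890. Region 2, from 50158321 to 50158358, held 1 read in experiment 1 and 2 in experiment 2, all with the same limits as the region.

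**Figure D3:**
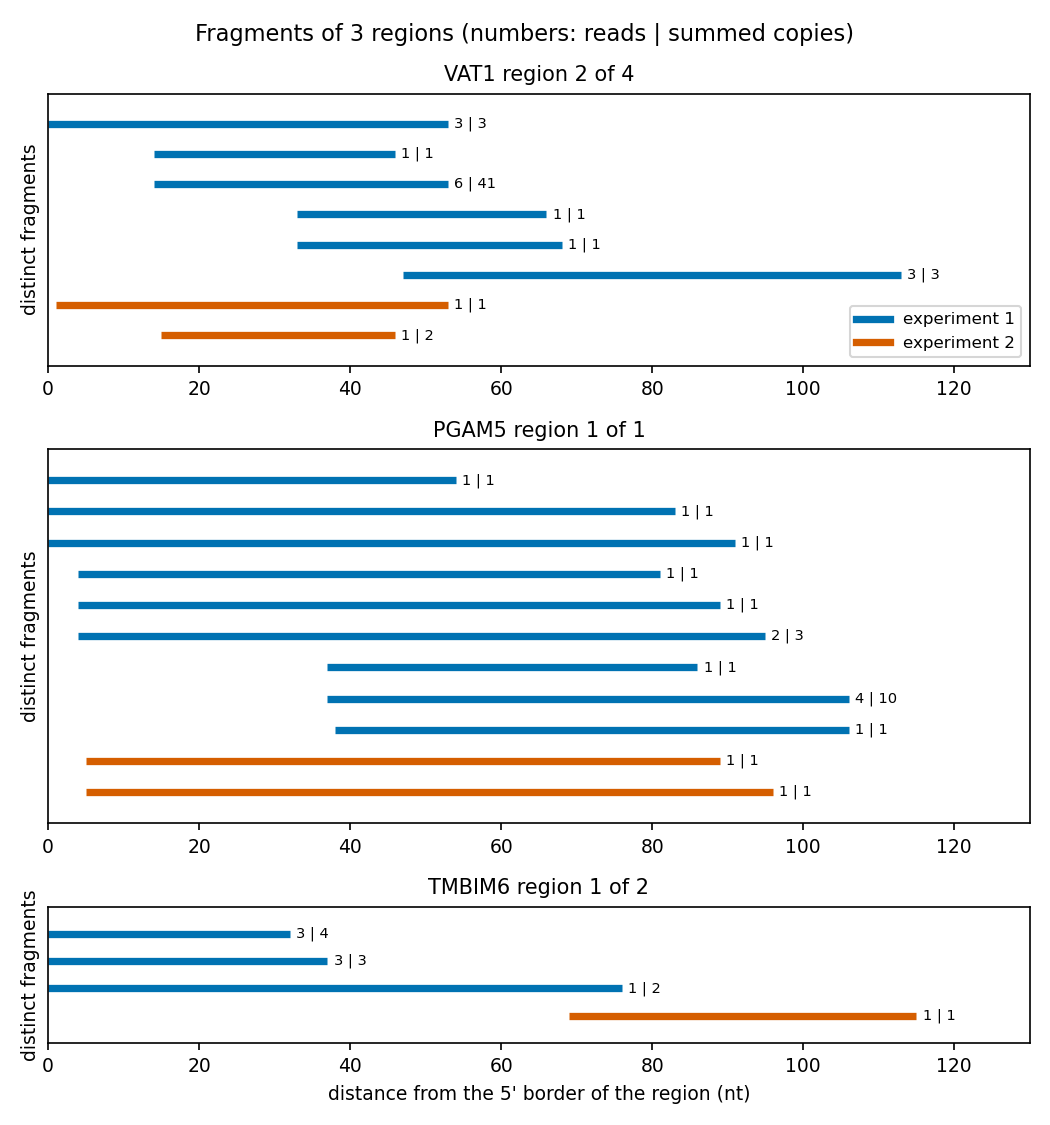
Distinct fragments of VAT1 region 2, the PGAM5 region and TMBIM6 region 1, drawn by distance from the 5′ border of the region in nt, in blue for experiment 1 and orange for experiment 2, each followed by its reads and summed copies. VAT1 and PGAM5 fragments of experiment 2 lie over those of experiment 1, and in TMBIM6 the fragment of experiment 2 overlaps 7 nt of the longest of experiment 1.

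SCAP region 3, at 47469104 to 47469160 of chromosome 3 (minus strand), was the most read-rich of the 12. In experiment 1 its reads numbered 8, a share of 0.199% (exact interval 0.0859 to 0.392), and in experiment 2 they numbered 182, a share of 3.02% (interval 2.60 to 3.48). The log2 ratio was 3.92 (Fisher's exact test, adjusted p = 6.56e-29). It ranked 7 of 1181 by reads in experiment 2 and 45 in experiment 1. By distinct fragments it held 1 and 12, a log2 ratio of 3.71 that did not pass (Fisher's exact test, adjusted p = 0.145). In names that start with 06 the reads numbered 2 and 60, in 07 they numbered 3 and 64, and in the rest 3 and 58. The same main fragment filled each group, so these are parts of 1 observation and not separate tests of it.

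The reads of that region in experiment 2 were mostly of 1 fragment. Those from 47469123 to 47469160 numbered 139 of 182 and carried 4019 of 4076 copies, or 98.6%. In each group of read names a single read of it held most copies, 1152 in 06, 1183 in 07 and 1465 in the rest. Of the 182 reads, 125 had a copy number of 1. With fragments joined when both ends lay within 3 nt, the 12 fragments became 2. By copies the region ranked 9 of 1181 in experiment 2 with 4076 and 6 in experiment 1 with 75, so it was copy-rich in both lists.

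The fragments of SCAP region 3 were nevertheless not the same in the 2 experiments. All 8 reads of experiment 1 ran from 47469104 to 47469134, a fragment of 31 nt seen in all 3 groups of read names. In experiment 2, 172 of 182 reads (94.5%) had their 5′ end at 47469160, 26 nt upstream of the 5′ end of experiment 1 on the minus strand. Another 5 began at 47469158 and 5 at 47469159, and 0 reads of experiment 2 shared an end with those of experiment 1. Covered positions numbered 31 nt in experiment 1 and 39 nt in experiment 2, of which 13 nt were shared.

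**Figure D4:**
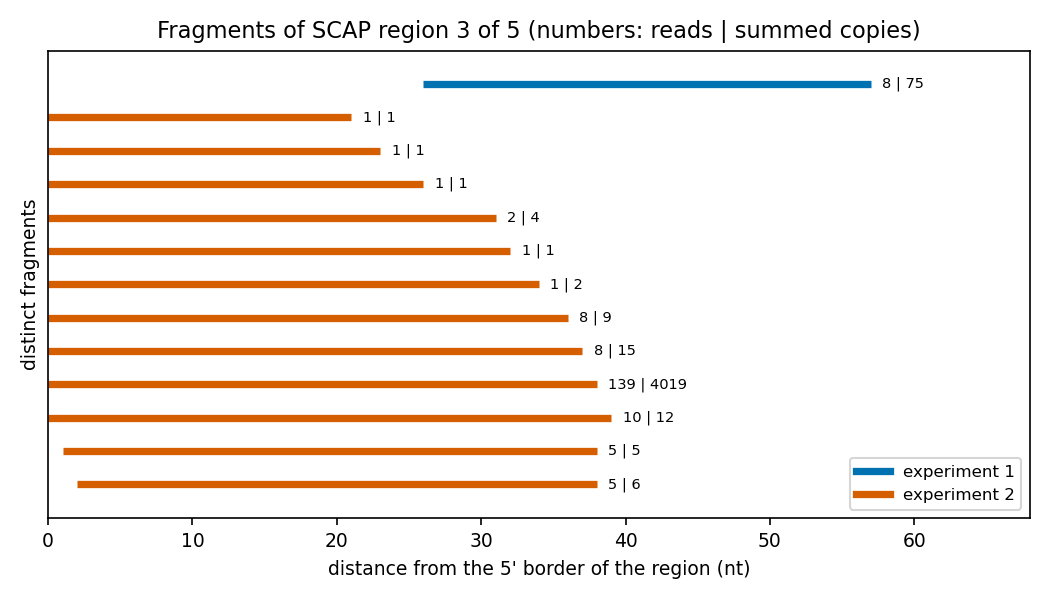
Distinct fragments of SCAP region 3 by distance from its 5′ border in nt, in blue for experiment 1 and orange for experiment 2, each followed by its reads and summed copies. The single fragment of experiment 1 starts 26 nt from the border, where the 12 fragments of experiment 2 start within 2 nt of it and the one with 139 reads holds 4019 copies.

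The other 4 SCAP regions held 1 to 9 reads per experiment and did not pass. Region 1, nearest the 5′ limit of the gene, from 47510718 to 47510758, rested on 1 read in each experiment, with the 5′ end at 47510758 in experiment 1 and at 47510757 in experiment 2. Region 2, from 47484465 to 47484556, held 9 and 3 reads (Fisher's exact test, adjusted p = 0.25) in 5 fragments and 2. The 5′ end at 47484555 was found in both experiments, with 1 read and 2. Region 4, from 47467527 to 47467577, held 4 reads in each, and region 5, from 47465426 to 47465459, held 3 in each. In regions 4 and 5, the fragment of experiment 2 had exactly the ends of a fragment of experiment 1.

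Fragments were taken to match where their 3′ ends coincided and experiment 2 had its 5′ end either there too or 1 nt further downstream. Such a pair was found in 10 of the 12 regions (83.3%), beside 1019 of all 1181 (86.3%). By its title, the list holds only regions present in both experiments. That a region has reads of both thus comes from the selection, and these shares do not measure how well the experiments repeat. The 2 regions without one were TMBIM6 region 1 and SCAP region 3. Of 13 pairs that coincided in their 3′ end, 5 did so in the 5′ end as well, and in 7 the end of experiment 2 lay 1 nt downstream. Over all 1181 regions there were 1380 such pairs, with 227 that coincided in the 5′ end and 884 with that shift of 1 nt. The rule for a match thus takes in the shift most frequent in these data, and the shares of matching regions depend on it. Whether matching fragments are separate molecules in the 2 experiments was not tested.

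Mapping quality, as the deposited score was read, has a ceiling of 70, and most reads of the 4 genes reached it. The median was 70 for each gene in each experiment. All 13 and 2 reads of PGAM5 and all 8 and 3 of TMBIM6 were at 70, as were 24 of 25 and 7 of 7 of VAT1. The exception in VAT1 was a fragment of 28 nt in region 3, at 43. In SCAP, 15 of 25 reads of experiment 1 and 184 of 193 of experiment 2 were at 70, the latter mostly in region 3. From region 1 to region 5 of SCAP, the medians were 29, 70, 70, 70 and 42 in experiment 1. In experiment 2 they were 29, 50, 70, 70 and 66. Under 30 were 1.41% of the reads of the 12 regions in experiment 1 and 1.46% in experiment 2, beside 14.8% and 18.9% of all reads. Without SCAP region 3 the shares were 1.59% and 4.35%, the latter 1 of 23 reads. These shares are a description, with no test.

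SCAP reads under 70 lay both in fragments that were low throughout and in fragments that also had reads at 70. The mixed fragments were of experiment 1. In region 2, the fragment from 47484479 to 47484510 had 1 read at 36 and 2 at 70, and in region 3 the fragment of 31 nt had 3 of its 8 reads under 70, with a minimum of 60. Region 1 was at 29 in both experiments, the only one of the 12 with no read of 30 or more. In region 5, the fragment from 47465428 to 47465459 had a mapping quality of 42 in both reads of experiment 1 and 66 in all 3 of experiment 2, although its ends were the same. In region 2, the fragment from 47484532 to 47484555 was at 50 in both experiments, and the one that began 1 nt upstream was at 56. In region 3, reads of 26, 23 and 21 nt had values of 43, 26 and 27, and the 139 reads of the main fragment were all at 70.

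**Figure D5:**
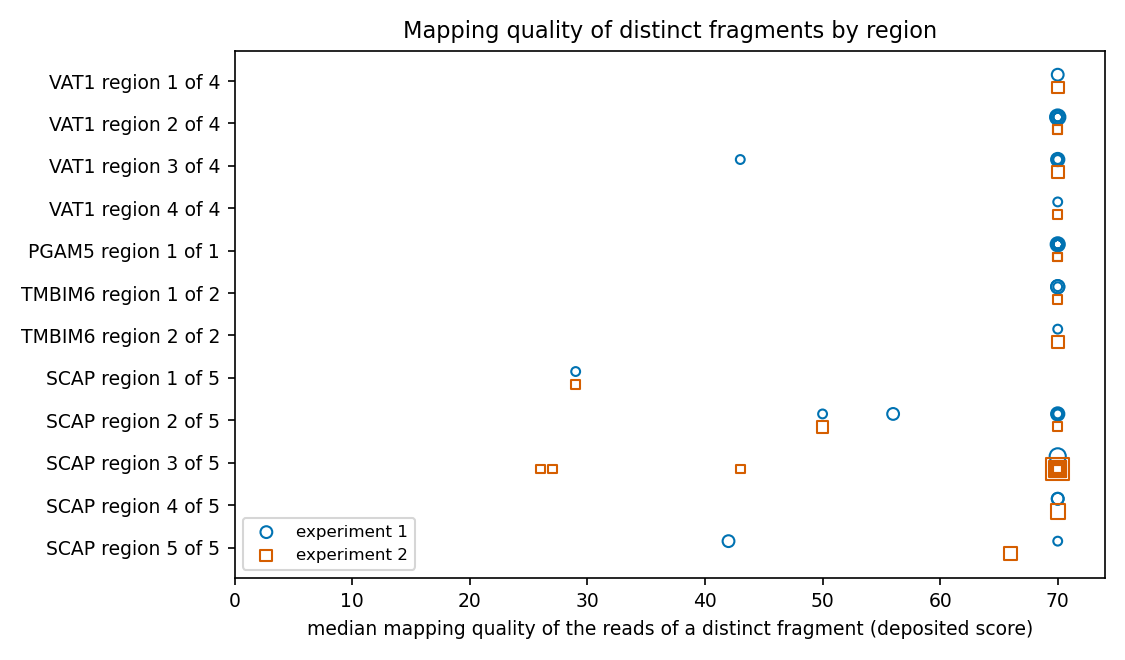
Median mapping quality of each distinct fragment (0 to 70, deposited score) by region, with experiment 1 as blue circles and experiment 2 as orange squares, larger for fragments with more reads. All fragments of PGAM5 and TMBIM6 lie at 70, VAT1 has 1 fragment at 43, and SCAP regions 1, 2, 3 and 5 have fragments between 26 and 66.

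In width and in fragments the 12 regions can be set beside the whole list. Their median width was 54 nt (range 34 to 115), where that of all 1181 regions was 38 nt (range 17 to 166). Reads per region had a median of 5.5 in experiment 1 and 2 in experiment 2, beside 2 and 1 over the whole list. A region rested on 1 distinct fragment in 5 of the 12 in experiment 1 and 8 of the 12 in experiment 2, or 41.7% and 66.7%, beside 75.1% and 87.2% of all regions. Experiment 1 had more reads in 5 of the 12 regions, experiment 2 in 2, and 5 had equal numbers. Among all 1181 the numbers were 622, 260 and 299. The genes were picked with results of these data known, so none of these values sets the 12 apart. Other genes of mitochondrial and ER membranes were not counted, because listed regions cannot be assigned to genes without an hg19 annotation.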

How the data were processed

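The labels give 4 iCLIP libraries, 2 per group. Build hg19 is named per the submitters' processing notes, along with bedtools, SAMtools, Novoalign and CASAVA 1.8.2. How regions were called is not given in the sources used here, beyond the title of the list, which says that its regions are present in both experiments. Each read has a deposited score, in whole numbers between 0 and 70, taken here to be mapping quality. The other deposited values used are 0-based starts and ends, printed 1-based. Members and lists were chosen with earlier results of these data known, and the named regions are all those overlapping the 4 genes. Reads were counted in the listed region with most shared bases; 10 reads passed a border. Shares of reads were tested by Fisher's exact test over 1181 regions. A check of the test on simulated data was run, but its outcome is not reported here and nothing rests on it. Planned tests of gene shares and of mapping quality were not run, since fragments and chosen genes are not replicates. Tests ran in scipy 1.17.1, tables in pandas 2.3.3 with numpy 2.4.6, and figures in matplotlib 3.10.9, under Python 3.11.15.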

Additional observations from a re-analysis of the deposited data

How the results depend on the processing

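Over 8 results and 27 alternatives, 19 values stayed within 1.5 times of the one reported, where gene shares entered as the number of genes higher in experiment 2, a count that does not show the size of a ratio. Clusters of the reads of 1 experiment alone gave 12 to 13 regions in the 4 genes, against 12. Every read of both lists overlaps a listed region, and the list is of regions present in both experiments. That count, included among the 19, could therefore hardly move and is no support. Of the 12 regions, 3 differed in share by Fisher's exact test when all reads were counted. By distinct fragments 0 did, and with totals without regions of at least 50 reads 0 did. Within each group of read names (06, 07 and no prefix) 1 did, SCAP region 3 each time, and these groups are parts of 1 observation. Counts over the whole list with the reduced totals or within name groups are not given here, so nothing is read from the counts of members there. Each of these settings holds fewer reads or fragments than the full lists. With the reduced totals, though, the reads of VAT1 region 2 (15 and 2) and of the PGAM5 region (13 and 2) were unchanged. Their log2 ratios of shares went from -3.49 to -2.42 and from -3.29 to -2.21. Why the counts differ between settings was not tested. With the reduced totals, SCAP region 3 is left out, and 0 of 4 genes had a higher share in experiment 2, against 1. In experiment 2, 26 distinct fragments became 16 with ends within 3 nt joined. Matching ends were found in 5 regions at offset 0 alone, against 10, and the share over the whole list at that offset is not given here. The ratios themselves moved: from reads to distinct fragments, the log2 ratio of SCAP went from 2.36 to 0.75, and to summed copies, an alternative chosen after seeing the data, that of VAT1 went from -2.42 to -5.58. No paired analysis was possible because the labels give each list both pull-downs of its experiment. A test of mapping quality, and of gene shares, was not run. A median of 5.5 and 2 reads per region limits what can be seen.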

Other observations

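SCAP region 3 can be set beside the other read-rich regions of the list, a comparison chosen after its values were seen. Where either experiment had 50 reads or more, in 20 regions, 14 (70%) had no matching ends in the 2 experiments, beside 162 (13.7%) of all 1181. In 17 of the 1181 regions (1.44%), at most 13 nt were covered by both experiments, as in SCAP region 3, and 5 of these were among the 20. TMBIM6 region 1, with 7 nt, was also among the 17. The median over all regions was 34 nt. No test was run on these numbers.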
